A study of Macaca fascicularis with 6 samples.

Results

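The genes described here are 10 that encode oocyte proteins binding stored maternal mRNA: the 4 members of the CPEB family (CPEB1, CPEB2, CPEB3 and CPEB4), ZAR1 and ZAR1L, YBX2, DAZL, PATL2 and LSM14B. They were chosen by symbol, all 10 were found among the 28164 genes of the deposited count table, and all 10 were among the 15815 genes with enough counts to be tested. The oocytes came from the cynomolgus monkey (Macaca fascicularis). GV oocytes are immature and still hold the large nucleus of meiotic prophase, the germinal vesicle. IVM MII oocytes had been matured in vitro and IVO MII oocytes in vivo, both to metaphase of the second meiotic division. Each of the 3 groups had 2 libraries, and every library is labelled as stripped, wild type and without treatment. The sources used here do not give the animals' ages, the hormones used, or how many oocytes and animals went into each library, so p-values measure the spread between these libraries, which may be technical.

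A growing oocyte makes and stores mRNA that it translates only later, after transcription has stopped and meiosis has resumed. CPEB1 binds the cytoplasmic polyadenylation element of such mRNAs. It holds them silent with a short poly(A) tail in the GV oocyte and, once phosphorylated during maturation, brings about tail lengthening and translation. CPEB2, CPEB3 and CPEB4 are its paralogs, and CPEB4 is known from frog oocytes to act after CPEB1 in the later part of meiosis. ZAR1 and ZAR1L are zinc finger proteins that bind maternal mRNA, and YBX2 is the germ cell Y-box protein that packages stored mRNA. DAZL promotes the translation of its bound mRNAs in maturing oocytes, PATL2 is an oocyte repressor of translation of the PAT1 family, and LSM14B belongs to the RAP55 family of repressive RNA granule proteins.

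Library totals ran from 27707021 to 35515139 counts, and the 10 genes together took 0.154% to 0.322% of the counts of a library. The correlation of log2 CPM (a gene's count relative to its library total, scaled by TMM factors) across genes was 0.975 to 0.982 within groups and 0.847 to 0.936 between groups; genes are not independent replicates. All 8 oocyte markers examined had counts in every library, with a summed level of 28816 to 35295 CPM in GV, 14978 to 16364 in IVM MII and 8345 to 11570 in IVO MII. The 14 cumulus and granulosa markers summed to 32.8 to 38.9 CPM in GV, 79.5 to 80.9 in IVM MII and 35.6 to 52.1 in IVO MII, and 5 of them (INHA, FOXL2, PTX3, STAR and AMHR2) had no count in any library. The 10 theca, stroma and endothelium markers summed to 331 to 390, 156 to 163 and 90.9 to 95.5 CPM in the same order. Of these sums VWF alone held 288 and 337 CPM in GV, 105 and 102 in IVM MII, then 41.8 and 46.0 in IVO MII. The 7 blood and immune markers in the table summed to at most 13.7 CPM. The part of other cells in the results below was not tested.

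Divided by exon length, the 10 genes covered a wide span of levels in every group. In GV oocytes ZAR1L stood highest at 440 ± 167 CPM per kb of exon (SD, n = 2), followed by DAZL at 105 ± 31.5, CPEB1 at 87.1 ± 0.497, PATL2 at 64.5 ± 12.8 and ZAR1 at 45.2 ± 1.68. DAZL and CPEB1 overlapped in their libraries. YBX2 lay well under these at 7.02 ± 1.96 CPM per kb and CPEB4 at 3.28 ± 0.761. CPEB3 (0.811 ± 0.134), CPEB2 (0.777 ± 0.172) and LSM14B (0.619 ± 0.164) came last, and neighbours among these 3 overlapped. Among all genes tested, ZAR1L ranked 203 from the top in GV per length, and LSM14B ranked 11526.

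The order changed with maturation in both kinds of MII oocyte. In IVM MII, ZAR1L was again first at 637 ± 37.3 CPM per kb, with CPEB1 second at 181 ± 25.5 and DAZL next at 137 ± 5.78. PATL2 followed at 28.7 ± 3.52, and ZAR1 (9.80 ± 0.205) and CPEB4 (9.54 ± 0.910) overlapped. CPEB2 was at 3.29 ± 0.0986, LSM14B at 1.47 ± 0.369, CPEB3 at 1.16 ± 0.0545 and YBX2 at 0.937 ± 0.278, and the last pair overlapped. In IVO MII, ZAR1L at 242 ± 80.2, CPEB1 at 205 ± 20.6 and DAZL at 175 ± 34.9 CPM per kb formed a leading group in which neighbours overlapped. They were followed by PATL2 at 15.9 ± 1.82, CPEB4 at 11.97 ± 0.0213, ZAR1 at 9.24 ± 1.42 and CPEB2 at 3.56 ± 0.157. CPEB3 at 2.33 ± 0.333 and LSM14B at 1.97 ± 0.228 overlapped, and YBX2 was again last at 1.39 ± 0.0130.

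**Figure D1:**
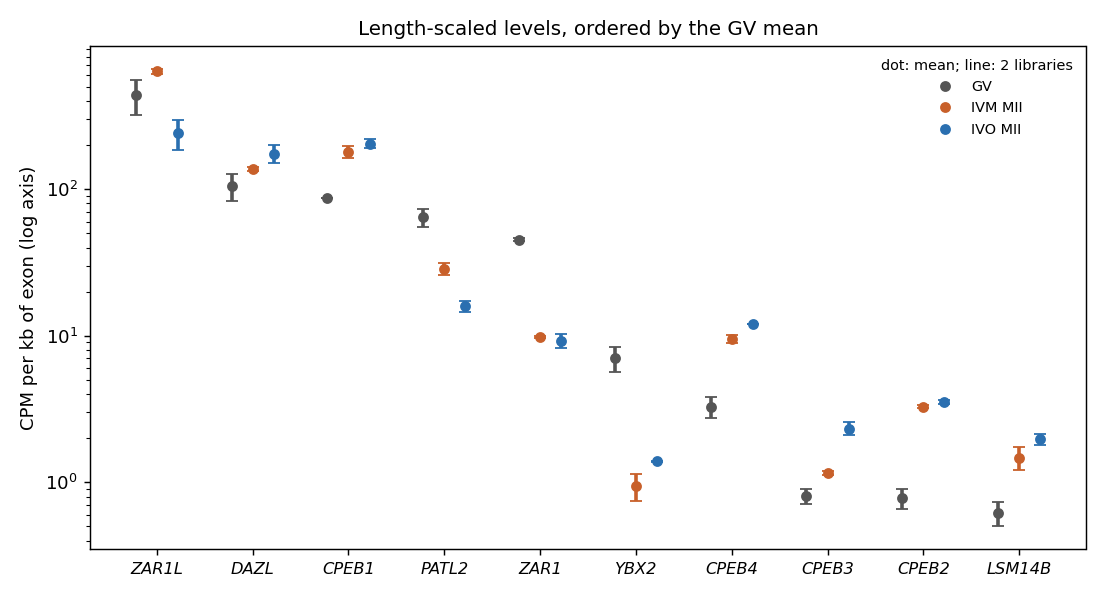
Length-scaled levels (CPM per kb of exon, log axis) of the 10 genes in GV, IVM MII and IVO MII oocytes, ordered by the GV mean; dots are means and lines join the 2 libraries of a group. ZAR1, PATL2 and YBX2 sit lower in both MII groups than in GV, the 4 CPEB genes and LSM14B sit higher, and ZAR1L is highest in IVM MII at 637 and lowest in IVO MII at 242 CPM per kb.

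Maturation was followed by comparing each MII group with GV. Both comparisons use the same 2 GV libraries, so their values stand side by side and one does not support the other. In culture, CPEB1, CPEB2, CPEB4 and LSM14B rose and ZAR1, YBX2 and PATL2 fell, so that 4 of the 10 had a higher and 3 a lower level in IVM MII by edgeR's quasi-likelihood test at an adjusted p under 0.05, and 3 were not called. Of all genes tested, 25.6% were higher and 24.7% lower, 50.3% in all. In the animal, the 4 CPEB genes, DAZL and LSM14B rose and ZAR1, ZAR1L, YBX2 and PATL2 fell, 6 higher and 4 lower, against 28.1% and 30.5% of all genes (58.5% in all). The libraries of the compared groups did not overlap for any of the 10 genes in either comparison, which held for 77.8% of all genes in IVM MII and 80.2% in IVO MII. The median log2 fold change of the 10 genes was 0.52 in IVM MII and 0.99 in IVO MII, beside 0.06 and -0.07 for all genes tested. With library totals in place of TMM factors, which moved the median of all genes from 0.06 to 0.35 in IVM MII, 7 of the 10 were higher and 3 lower there, beside 33.3% and 19.0% of all genes. CPM is a share of a library's counts, so a rise or fall against GV is one of relative level and not of amount per oocyte. Poly(A) tails served as the priming site for cDNA, so a longer tail and a larger amount of an mRNA cannot be told apart here. Nor can the share of oocytes that hold an mRNA and its amount per oocyte.

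**Figure D2:**
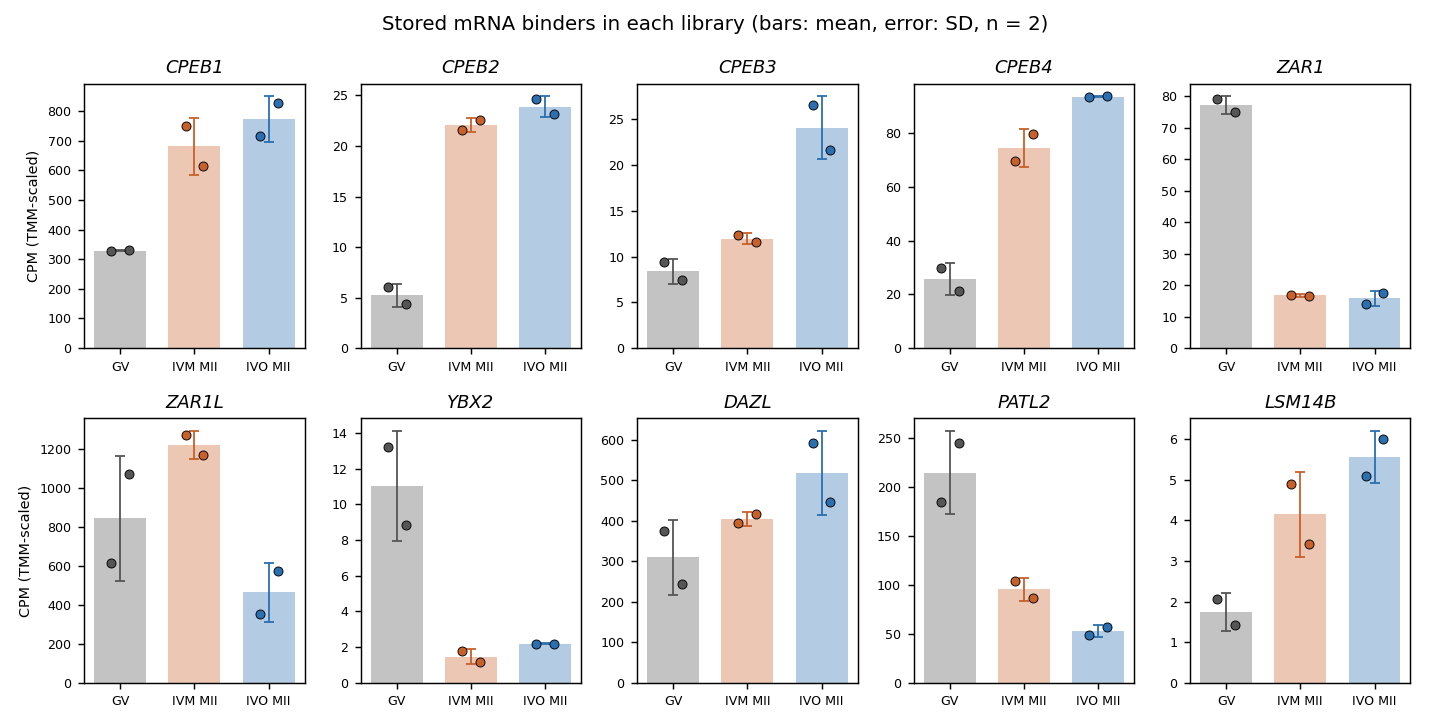
Level in CPM (TMM-scaled) of each of the 10 genes in the 2 libraries of GV, IVM MII and IVO MII oocytes; points are libraries, bars their mean and error bars the SD (n = 2), and each panel has its own axis from 0. CPEB1 goes from 329 CPM in GV to 682 and 773, while ZAR1 goes from 77.1 to 16.7 and 15.7.

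CPEB1 (macFas5 chromosome 7, 63372030 to 63471678, plus strand) was at 328 and 330 CPM in GV, 750 and 614 in IVM MII, then 717 and 828 in IVO MII. Every MII library lay above both GV libraries. The rise was 1.05 ± 0.24 (standard error) on the log2 scale in culture (adjusted p = 0.00324) and 1.23 ± 0.24 in the animal (adjusted p = 0.000889). CPEB1 was thus 2.07-fold and 2.35-fold higher than in GV.

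CPEB2 (chromosome 5, 14101270 to 14167511) had 177 and 130 counts in GV, or 6.03 and 4.40 CPM, and rose to 21.6 and 22.5 CPM in IVM MII, then 24.6 and 23.1 in IVO MII. Its rises of 4.23-fold and 4.58-fold had the largest fitted size among the genes of the set that rose (adjusted p = 7.87e-05 and 3.67e-05). CPEB4 (chromosome 6, 173546740 to 173619000) went from 29.9 and 21.4 CPM in GV to 69.6 and 79.7 in IVM MII, then 93.5 and 93.7 in IVO MII. Its rises were 2.91-fold and 3.65-fold (adjusted p = 0.000297 and 5.51e-05). CPEB3 (chromosome 9, 90542616 to 90747456) stood at 9.36 and 7.41 CPM in GV, 12.4 and 11.6 in IVM MII, then 26.5 and 21.6 in IVO MII. It was called in the animal only, where it was 2.87-fold higher (adjusted p = 0.000373); in culture it came to 0.51 ± 0.25 on the log2 scale (adjusted p = 0.110), and library totals gave 0.81 (adjusted p = 0.0272). The difference between the 2 kinds of MII oocyte was itself tested and is given below.

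Within each library CPEB1 made up most of the family. Of the summed CPM per kb of CPEB1 to CPEB4, CPEB1 held 93.9% and 95.5% in GV, 93.7% and 91.7% in IVM MII, then 91.3% and 92.6% in IVO MII. The share of CPEB4 was 4.13% and 2.99% in GV, 4.20% and 5.75% in IVM MII, then 5.74% and 5.06% in IVO MII. CPEB1 and CPEB4 were at a ratio of 22.7 and 31.9 in GV, 22.3 and 16.0 in IVM MII, then 15.9 and 18.3 in IVO MII, so that both IVO MII libraries lay below both GV libraries while the lower GV and the higher IVM MII value lay close to each other. These ratios were not tested.

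ZAR1 (chromosome 5, 48586907 to 48597921) and ZAR1L (chromosome 17, 11851510 to 11860485) took different courses. ZAR1 was at 79.1 and 75.0 CPM in GV, 16.9 and 16.5 in IVM MII, then 14.0 and 17.5 in IVO MII. Its falls were 4.61-fold in culture and 4.89-fold in the animal (log2 fold change -2.21 ± 0.23 and -2.29 ± 0.23, adjusted p = 2.00e-05 and 1.16e-05). ZAR1L was at 617 and 1070 CPM in GV, 1270 and 1169 in IVM MII, then 355 and 572 in IVO MII. The GV libraries of ZAR1L differed 1.73-fold from each other, a wider gap than for any other gene of the set in GV. Its log2 fold change against GV was 0.53 ± 0.31 in culture, which was not called (adjusted p = 0.177; 0.84 with an adjusted p of 0.0489 under library totals, and 0.85 with an adjusted p of 0.0297 with the trend with gene length removed). In the animal ZAR1L fell by 0.86 ± 0.32 on the log2 scale (adjusted p = 0.0336). That call ended without GV replicate 2 (-0.41, adjusted p = 0.365), without IVO MII replicate 1 (-0.55, adjusted p = 0.233), with library totals (-0.77, adjusted p = 0.0624) and with the length trend removed (-0.37, adjusted p = 0.289).

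YBX2 (chromosome 16, 7347998 to 7354301) had 388 and 262 counts in GV, 77 and 41 in IVM MII, then 57 and 64 in IVO MII. In CPM these were 13.2 and 8.86, then 1.78 and 1.17, then 2.20 and 2.17. Its fall of 7.44-fold in culture and 5.04-fold in the animal had adjusted p-values of 7.63e-05 and 0.000175, and in the animal its size was close to that of ZAR1. An exon of SLC2A4 on the other strand shares 127 bases (8.07%) of the YBX2 exons, and SLC2A4 had at most 5 counts in any library. PATL2 (chromosome 7, 21659107 to 21671767) went from 185 and 245 CPM in GV to 104 and 87.2 in IVM MII, then 48.7 and 57.3 in IVO MII. It was 2.25-fold lower in culture and 4.05-fold lower in the animal (adjusted p = 0.00161 and 3.69e-05).

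DAZL (chromosome 2, 30960607 to 30986512) was at 376 and 244 CPM in GV, 393 and 418 in IVM MII, then 591 and 445 in IVO MII. In culture the fitted value for DAZL was 0.39 ± 0.26 on the log2 scale, which was not called (adjusted p = 0.239; 0.67 with an adjusted p of 0.0469 under library totals). In the animal it rose by 0.74 ± 0.27, or 1.67-fold (adjusted p = 0.0305). The rise in the animal was not called without GV replicate 2 (0.47, adjusted p = 0.258), without IVO MII replicate 1 (0.54, adjusted p = 0.170) or with a filter of 10 CPM in 2 libraries (0.41, adjusted p = 0.180).

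LSM14B (chromosome 10, 94091747 to 94104765) had the fewest counts of the set in GV, with 61 and 42, followed by 211 and 120 in IVM MII, then 132 and 177 in IVO MII. In CPM these were 2.08 and 1.42, then 4.88 and 3.41, then 5.10 and 6.01. The rise of LSM14B was 2.37-fold in culture (adjusted p = 0.0126) and 3.17-fold in the animal (adjusted p = 0.00193). The call in culture ended without GV replicate 2 (log2 fold change 1.00, adjusted p = 0.114) or without IVM MII replicate 1 (1.00, adjusted p = 0.0781).

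Gene length moved with these changes. Across all 15815 genes the Spearman correlation of log2 fold change with exon length was 0.22 in IVM MII and 0.26 in IVO MII, which is across genes and carries no test. In the set, the 4 CPEB genes have 3776 to 10339 bases of exon, while YBX2 has 1573, ZAR1 1704, ZAR1L 1916, LSM14B 2825, DAZL 2960 and PATL2 3331. In IVO MII the shortest genes, YBX2, ZAR1 and ZAR1L, fell and the longest, the 4 CPEB genes, rose. Among the genes of middle length, LSM14B and DAZL rose and PATL2, longer than both, fell. The part of length in these changes was not tested. With the length trend removed, CPEB2 was at 1.82 and 1.90, CPEB4 at 1.24 and 1.52, ZAR1 at -1.85 and -1.72 and YBX2 at -2.52 and -1.72 on the log2 scale in IVM MII and IVO MII, each still called. By this step CPEB3 went from 0.51 to 0.16 in IVM MII, without a call, and from 1.52 to 1.11 in IVO MII, still called. Of the calls in the set against GV, only the fall of ZAR1L in IVO MII was lost by this step.

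**Figure D3:**
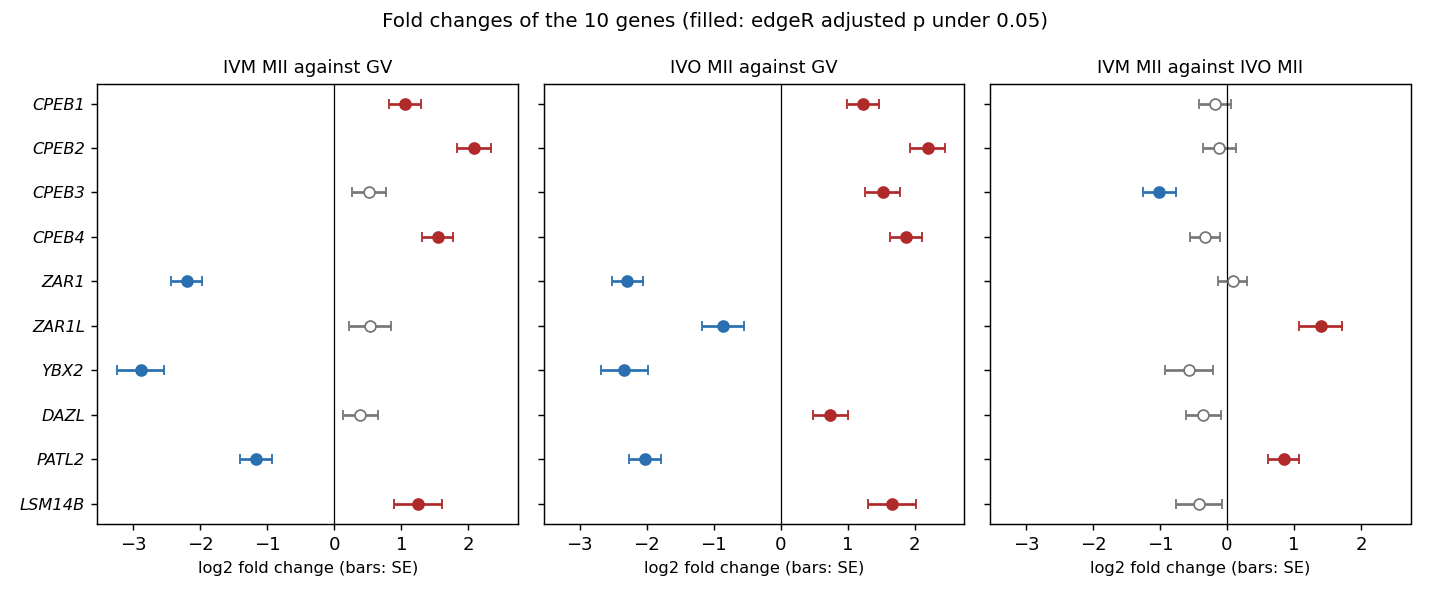
Log2 fold change of the 10 genes in the 3 comparisons, with bars for the standard error of the fit; filled points have an edgeR adjusted p under 0.05 (red higher, blue lower) and open points do not. CPEB1, CPEB2, CPEB4 and LSM14B lie right of 0 and ZAR1, YBX2 and PATL2 left of 0 in both comparisons with GV, and between IVM MII and IVO MII 3 genes are filled, where the open points of CPEB1 and CPEB2 change sign under library totals.

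Setting the MII groups against each other asks how these genes differed with the route of maturation. ZAR1L and PATL2 were higher in IVM MII and CPEB3 was lower, 2 and 1 of the 10 genes, beside 14.3% and 10.3% of all genes tested (24.6% in all). The libraries did not overlap for 8 of the 10 genes, against 63.0% of all genes. ZAR1L differed most in size, at 1220 ± 71.5 CPM after culture against 463 ± 154 in the animal, a log2 difference of 1.40 ± 0.32 (2.63-fold, adjusted p = 0.00874). PATL2 was at 95.5 ± 11.7 and 53.0 ± 6.06 CPM, a log2 difference of 0.85 ± 0.23 (1.80-fold, adjusted p = 0.0203). CPEB3 averaged 11.96 ± 0.564 CPM after culture against 24.1 ± 3.45 in the animal, a log2 difference of -1.01 ± 0.25 (adjusted p = 0.0133).

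These 3 calls did not hold with every library left out, while the sizes of the differences moved by less than 1.5 times. Fewer of all genes tested were also called when a library of either MII group was left out. Whether the set lost a larger part was not tested. Without IVO MII replicate 1 none of the 10 genes was called, while 3 had an unadjusted p under 0.05 (ZAR1L at 1.09 with an adjusted p of 0.0564, PATL2 at 0.74 with 0.104, CPEB3 at -0.85 with 0.0654; DESeq2 and limma-voom with all libraries each called 3). Without IVM MII replicate 1 PATL2 (0.75, adjusted p = 0.105) and CPEB3 (-1.03, adjusted p = 0.0613) lost their calls, and without IVM MII replicate 2 so did PATL2 (0.97, adjusted p = 0.0518) and CPEB3 (-0.96, adjusted p = 0.0846), so that 1 gene, ZAR1L, was called in each case. Library totals ended the call of CPEB3 (-0.78, adjusted p = 0.0577), which left 2 higher and 0 lower, beside 2803 genes higher and 894 lower of all genes tested (2260 and 1635 with TMM factors). No gene of the set passed edgeR's test for a fold above 2 (glmTreat; 1 gene at an unadjusted p under 0.05), which 5.84% of all genes passed. Summed levels of oocyte, cumulus and granulosa, and theca, stroma and endothelium markers were also higher in IVM MII than in IVO MII. Of 8 oocyte markers tested 4 were called higher and 0 lower, and of 6 cumulus and granulosa markers 2 and 0. Of 6 theca, stroma and endothelium markers VWF, an endothelial gene, was called higher (2.35-fold) and OGN lower. The oocyte markers OOEP, BMP15 and LOC102128013 (-0.14 on the log2 scale) had lower fitted values in IVM MII without a call. So did the cumulus and granulosa markers HAS2 and LOC102117886. The latter was at -2.74 on the log2 scale (adjusted p = 0.131 by edgeR), with at most 17 counts in any MII library, and its MII libraries overlapped. The part of these markers in the differences of the set was not tested.

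The other 7 genes did not pass the test between the 2 kinds of MII oocyte, which does not show that they were equal. For CPEB1 the log2 difference was -0.18 with a 95% interval from the fit of -0.69 to 0.33, and for CPEB2 it was -0.11 with an interval of -0.65 to 0.42; both changed sign under library totals (0.05 and 0.11). ZAR1 was at 0.08 with an interval of -0.40 to 0.56, CPEB4 at -0.33 (-0.82 to 0.17) and DAZL at -0.35 (-0.93 to 0.22). ZAR1 changed sign without IVO MII replicate 1 (-0.06) and with the length trend removed (-0.13). YBX2 was at -0.56 (-1.34 to 0.22) and LSM14B at -0.42 (-1.16 to 0.32), where the low counts leave the widest intervals of the 10 genes.

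The balance between related genes was read within each library, where the scaling of a library cancels but the trend with gene length does not. No test was made of these ratios. For single genes, libraries of compared groups did not overlap in 63.0% (between the routes) to 80.2% (IVO MII against GV) of all genes. ZAR1L exceeded ZAR1 per length by 6.94 and 12.7 in GV, 66.7 and 63.2 in IVM MII, then 22.5 and 29.1 in IVO MII. The 3 groups did not overlap, with the highest ratio in culture. PATL2 and its widely expressed relative PATL1, a decapping factor, were at a ratio of 28.8 and 60.8 in GV, 9.90 and 7.94 in IVM MII, then 2.67 and 3.54 in IVO MII. Here too the groups did not overlap, and IVO MII was lowest. YBX1, another Y-box gene, stood at 0.479 and 0.716 of YBX2 in GV, 5.29 and 7.16 times in IVM MII and 3.56 and 5.26 times in IVO MII. YBX2 was thus the higher of the pair in both GV libraries and the lower in all 4 MII libraries, while YBX1 itself, at 7.05 and 7.07 CPM in GV and 8.73 to 12.7 in MII, was not called in any comparison. LSM14A, the paralog of LSM14B, exceeded it by 5.53 and 6.74 in GV, 5.29 and 8.11 in IVM MII, then 5.56 and 5.37 in IVO MII, and these ranges overlapped.

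**Figure D4:**
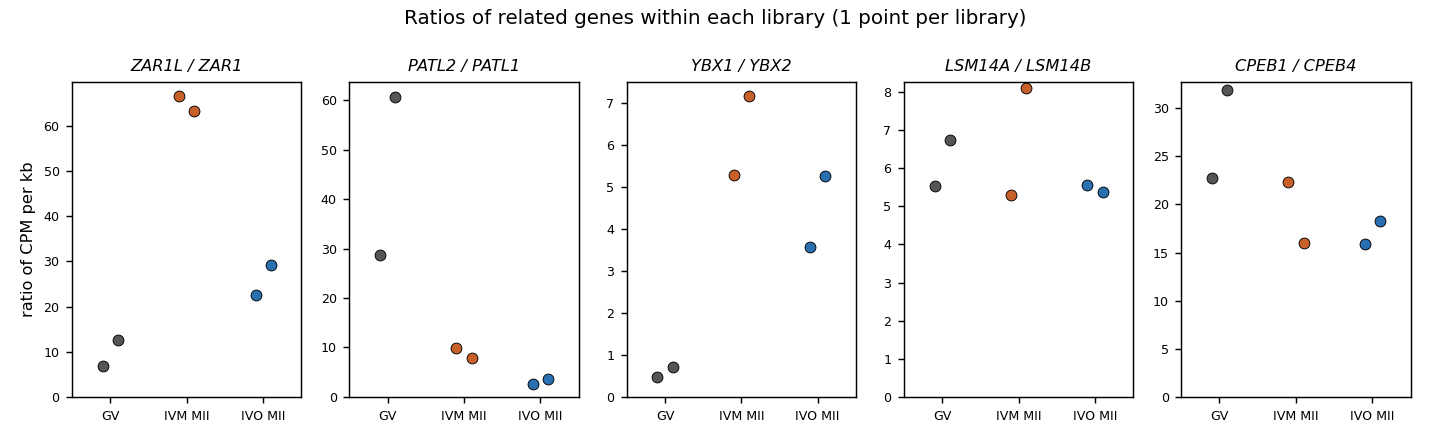
Ratio of length-scaled levels of 2 related genes within each library (1 point per library, linear axes from 0) in GV, IVM MII and IVO MII. ZAR1L over ZAR1 is 6.94 and 12.7 in GV against 66.7 and 63.2 in IVM MII, PATL2 over PATL1 is highest in GV, YBX1 over YBX2 is below 1 in GV alone, and LSM14A over LSM14B overlaps between groups.

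Partner genes were described from 4 lists, whose counts stand beside 25.6% of all genes higher and 24.7% lower in IVM MII, 28.1% and 30.5% in IVO MII, and 14.3% and 10.3% between the routes. Fits that left out a library of either compared group called fewer of all genes tested, both higher and lower, in every comparison. Whether a smaller count for a list in such a fit goes beyond that was not tested. The polyadenylation machinery list holds the cleavage and polyadenylation factor, poly(A) polymerases and poly(A)-binding proteins, with 14 of 15 genes tested. Of these, 9 rose and 3 fell in IVM MII and likewise 9 and 3 in IVO MII, with medians of 0.84 and 0.97 on the log2 scale. Library totals left 1 gene lower in IVM MII in place of 3, and gave 2 higher and 1 lower between the routes. With the length trend removed 7 rose and 4 fell in IVO MII, and 2 were higher and 3 lower between the routes. TENT2, the cytoplasmic poly(A) polymerase GLD2 recruited with CPEB1 (listed as PAPD4), was at 167 and 155 CPM in GV, 325 and 290 in IVM MII, then 517 and 447 in IVO MII. TENT2 was 1.91-fold and 2.99-fold above GV (adjusted p = 0.00454 and 0.000116). PABPN1 (listed as LOC101867156), the nuclear poly(A)-binding protein, rose 3.46-fold and 4.16-fold, and CPSF4 2.88-fold and 3.62-fold. PABPC1L, the poly(A)-binding protein of oocytes known as ePAB, went the other way, from 27.4 and 29.9 CPM in GV to 15.8 and 15.4 in IVM MII, then 4.21 and 5.06 in IVO MII. CPSF1 fell 3.65-fold and 3.05-fold. In IVM MII against IVO MII 1 gene of the list was higher, PABPC1L by 3.36-fold (adjusted p = 0.000549), and 3 were lower, PABPC4, PABPN1L and TENT2. TENT2 lost that call in 13 of the alternatives, among them each of the 6 libraries left out. The fall of PABPC1L in culture (-0.88, adjusted p = 0.00906) ended without GV replicate 2 (-0.81, adjusted p = 0.0704), without IVM MII replicate 2 (-0.85, adjusted p = 0.0525) and with library totals (-0.58, adjusted p = 0.0755). In the list, 1 gene fell in culture once GV replicate 2 was left out, and 0 were lower in IVM MII than in IVO MII once IVM MII replicate 2 was left out (2 at an unadjusted p under 0.05 by edgeR).

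The list of repression and cap-binding partners had 19 of 20 genes tested, of which 6 rose and 8 fell in IVM MII and 5 rose and 8 fell in IVO MII, with medians of -0.48 and -0.53. With library totals 8 rose and 7 fell in IVM MII. EIF4E1B, the oocyte cap-binding protein found with CPEB1, rose 2.81-fold in culture and 3.57-fold in the animal (from 1.84 to 2.54 on the log2 scale in the animal with the length trend removed), and LSM14A 2.54-fold and 2.88-fold. CAPRIN2, an RNA granule protein, fell 3.20-fold and 3.00-fold, and EDC3, an activator of decapping, 3.44-fold and 4.61-fold. PATL1 rose 2.05-fold in culture and 3.30-fold in the animal; the former call ended without GV replicate 2 (0.75 on the log2 scale, adjusted p = 0.0895). The genes that rose in culture numbered 3 without GV replicate 2 or without IVM MII replicate 1, and the genes that fell numbered 5 without the latter. Between the routes 3 had a higher and 2 a lower level in IVM MII, where TOB1, an adaptor that recruits deadenylases, was 3.33-fold higher (adjusted p = 0.00961); its adjusted p was 0.0752 without IVM MII replicate 2, and its log2 difference went from 1.74 to 2.36 without IVO MII replicate 1. The higher genes numbered 1 without either IVM MII replicate, and the lower genes 0 when either IVM MII replicate 1 or IVO MII replicate 1 was left out (2 and 4 at an unadjusted p under 0.05) and 1 without any of the other 4 libraries or with library totals, which gave 4 higher.

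Of 11 kinases, phosphatases and other regulators of CPEB1 activation and turnover, 2 rose and 4 fell in IVM MII and 2 rose and 3 fell in IVO MII, with medians of -0.41 and -0.49. Library totals left 1 gene lower in IVM MII in place of 4, and RLE factors gave 1 higher and 5 lower. CDK1, the kinase of M phase, was at 155 CPM in GV, 88.7 after culture and 25.0 in the animal, a 3.55-fold difference between the MII groups (adjusted p = 0.00116). PPP1CB, a catalytic subunit of protein phosphatase 1, rose 2.80-fold in culture (adjusted p = 0.00174) and was 2.59-fold higher in IVM MII than in IVO MII (adjusted p = 0.00659; 0.0624 without IVM MII replicate 2). PPP1CC, another such subunit, rose 2.45-fold in the animal (adjusted p = 0.000933). In culture the counts were 1 higher without GV replicate 2 or either IVM MII replicate, and 2 lower without any 1 of the 4 compared libraries; in the animal 1 was higher without GV replicate 1 or IVO MII replicate 2. Between the routes 2 were higher and 0 lower in IVM MII by edgeR, with 1 higher without IVM MII replicate 2 and 1 lower when either IVM MII replicate 1 or IVO MII replicate 1 was left out. At an unadjusted p under 0.05 edgeR gave 2 lower; DESeq2 called 2 of this list lower and limma-voom 0, and RLE factors or removal of the length trend gave 1.

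The last list is a mixed one of 17 mRNAs studied in oocytes as stored mRNAs or as mRNAs whose tails change in maturation, with 16 tested. In IVM MII 6 rose and 4 fell, and in IVO MII 8 rose and 3 fell, with medians of -0.04 and 0.68. In IVM MII library totals gave 7 higher and 1 lower, and removal of the length trend 7 higher and 2 lower. Between the routes library totals gave 4 higher and 2 lower in place of 3 and 5, and removal of the length trend 2 and 6. DCP1A and DCP2, the decapping subunits known to be made from stored mRNA in maturing mouse oocytes, rose 2.82-fold and 2.75-fold in culture and 3.99-fold and 3.17-fold in the animal. TPX2, the spindle factor whose mRNA is a target of CPEB1, rose 2.22-fold and 3.25-fold. GDF9 fell 3.09-fold and 5.68-fold. In IVM MII against IVO MII 3 were higher and 5 lower, among them cyclin CCNB2, 2.36-fold higher, cyclin CCNA2, 2.13-fold lower, and WEE2, the oocyte kinase that inhibits CDK1, 3.28-fold lower. In culture fewer genes of this list were called in each direction when any GV or IVM MII library was left out. The same held for all genes tested. Between the routes the higher genes numbered 1 without GV replicate 1, IVM MII replicate 2 or either IVO MII replicate, and the lower genes 2 or 3 without any 1 of the 4 compared libraries.

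**Figure D5:**
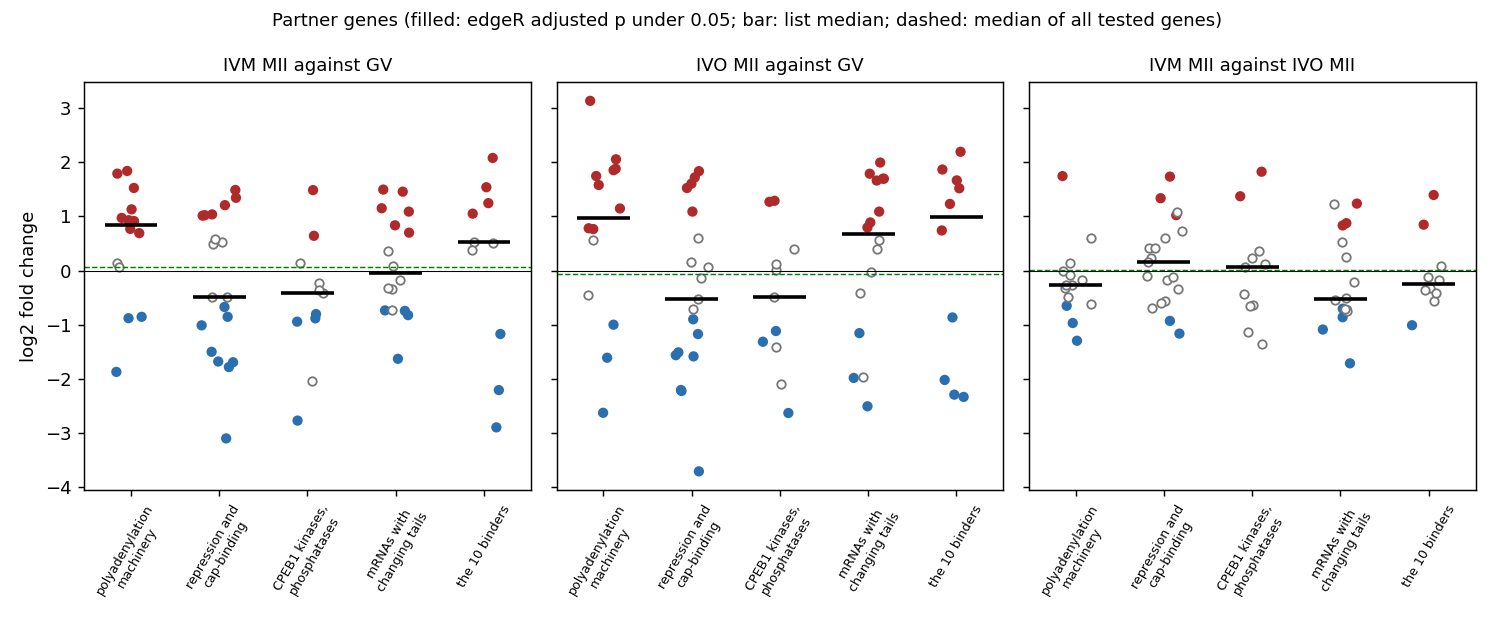
Log2 fold changes of the genes of the 4 partner lists and of the 10 binders in the 3 comparisons; each point is a gene (filled with an edgeR adjusted p under 0.05), the black bar is the median of the list and the dashed green line the median of all tested genes. The polyadenylation machinery list has medians of 0.84 and 0.97 against GV, and the repression and cap-binding list -0.48 and -0.53, with genes called in both directions in each list.

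Genes with the most similar pattern were searched among 5868 genes with a symbol and a mean of at least 10 CPM, by the root mean square difference of centred log2 CPM over the 6 libraries. For CPEB1 the nearest were BECN1 (0.05), OSBPL3 (0.06) and PA2G4 (0.07). BECN1 was at 23.7 and 23.1 CPM in GV, 53.2 and 45.6 in IVM MII, then 48.2 and 57.6 in IVO MII. For ZAR1 the nearest were POLR2D (0.10), VTI1B (0.11) and LOXL4 (0.12), with POLR2D at 158 and 156 CPM in GV, 36.1 and 38.8 in IVM MII, then 34.7 and 38.4 in IVO MII. Within the set the closest pair was CPEB2 and CPEB4, with a difference of 0.22, followed by CPEB1 and LSM14B with 0.24.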

How the data were processed

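The deposited table holds raw counts per gene in 6 libraries. Per the file headers, featureCounts 2.0.1 summed fragments on exons per gene using macFas5 RefSeq models, and no strand setting was passed. Coordinates and exon lengths were deposited beside the counts. Per the submitters' processing notes fastp, FastQC, Bowtie2, SAMtools and featureCounts were used. Per the labels' protocols, oligo-dT primed the cDNA, which was made by template switching, amplified, tagmented and read in pairs; no molecular identifiers are named. Since Bowtie2 aligns without splicing, junction reads may be missing, and paralogs may share reads.

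edgeR 4.0.16 in R 4.3.3 filtered genes with filterByExpr (15815 of 28164 kept), computed TMM factors (0.903 to 1.22) and fitted its robust quasi-likelihood test to all 6 libraries with the groups as terms and 3 residual degrees of freedom. Tests were two-sided with a threshold of 0.05 on p-values adjusted across all genes (Benjamini-Hochberg). Standard errors are the fold change divided by the root of the F statistic. Alternatives were DESeq2 1.42.0, limma-voom (limma 3.58.1), RLE factors, library totals, no filter, at least 10 CPM in 2 libraries, a fit to only the 4 libraries of a comparison, a replicate block, a non-robust fit, a fold above 2, removal of the length trend, and each library left out; a lone library is then assumed to vary like the other groups. Named were all 10 genes, up to 3 genes per direction, list and comparison by adjusted p (some are also given in other comparisons), and the 3 nearest patterns of CPEB1 and ZAR1. Of list genes within that limit, only some were described with values, and the values were seen in choosing them. TENT2 was among them although its call between the routes was lost in 13 of the alternatives. PABPN1 was matched by gene number in a RefSeq table of a later assembly, used for names only. The genes and lists were chosen with earlier results of these data known. The procedure was tested on simulated data. Figures were drawn with matplotlib 3.10.9.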

Additional observations from a re-analysis of the deposited data

Results flagged for a closer look

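For 3 of the 10 genes the change from GV differed between the routes of maturation by a direct test of IVM MII against IVO MII, which 24.6% of all genes tested passed. The log2 difference, IVM MII minus IVO MII, was 1.40 for ZAR1L, 0.85 for PATL2 and -1.01 for CPEB3, each over 2 libraries per group. ZAR1L was the only 1 of the 10 genes whose fitted change from GV had opposite signs, 0.53 in culture (adjusted p = 0.177 by edgeR) and -0.86 in the animal (adjusted p = 0.0336 by edgeR). Without IVO MII replicate 1 the log2 differences were 1.09 for ZAR1L, 0.74 for PATL2 and -0.85 for CPEB3, and all 3 lost their call. Fewer of all genes tested were called in that fit as well. Whether the set lost a larger part of its calls than other genes was not tested. Groups of 2 libraries are too small for a check of single outlying libraries.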

How the results depend on the processing

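Over the fold changes of the 10 genes in 3 comparisons, 470 values under alternative settings kept direction and side of the threshold, 26 lost the call, 4 gained one and 4 changed sign. Those that changed sign had no call and all compared IVM MII with IVO MII: CPEB1 (0.0475) and CPEB2 (0.11) under library totals, and ZAR1 with the length trend removed (-0.13) and without IVO MII replicate 1 (-0.0631, the lowest of its values with 1 library left out, of which the highest was 0.261). In IVM MII against GV, library totals gave 7 higher genes in place of 4, and a fold above 2 left 4 called genes in place of 7, 2 of them higher. Of all 15815 genes tested, library totals gave 5272 higher in place of 4053. A fold above 2 left 803 of them higher and 2060 lower, where the main test had 4053 and 3908. In IVM MII against IVO MII a fold above 2 left 0 called, 0 higher and 0 lower, and library totals left 0 lower in place of 1 (1 at an unadjusted p under 0.05 by edgeR in each). There 5.84% of all genes tested passed a fold above 2, and library totals left 894 lower in place of 1635. With each library left out the called genes numbered 6 to 7 in IVM MII against GV (3 to 4 higher), 8 to 10 in IVO MII against GV, and 0 to 3 between the routes (0 to 2 higher, 0 to 1 lower). In every comparison, fewer of all genes tested were also called when a library of either compared group was left out. The cause of these moves was not tested. The strict filter removed YBX2 and LSM14B, so it gave no value for them. With the replicate number as a block the called genes of the set numbered 7, 10 and 3, as without it, and it changed no other call among the 10 genes; the correlations of same-numbered libraries' deviations were -0.144, 0.178 and -0.114, and nothing in the labels links them. Of the named partner genes, TENT2 between the routes had an adjusted p of 0.0514 with the block. Of the fold changes of called partner genes, 1575 kept their call and 234 lost it. Depth limits YBX2 and LSM14B most, with 41 and 42 counts in their lowest libraries.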
